A study of Mus musculus with 10 samples.

Results

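The genes of the NF-κB family, 5 that encode subunits (Nfkb1, Nfkb2, Rel, Rela and Relb) and 5 that encode inhibitor proteins of the IκB type (Nfkbia, Nfkbib, Nfkbie, Nfkbiz and Nfkbid), were examined in peritoneal lavage cells of septic mice. The members were chosen by symbol, and all 10 were found among the 34745 genes of the deposited table. All 10 passed the filter on low counts and were among the 12264 genes tested. The libraries came from mice with sepsis induced by CLP (cecal ligation and puncture), in which gut bacteria leak into the abdominal cavity. Of the 10 libraries, 5 carry the name AX and 5 the name NC; the series compares amlexanox with vehicle, and AX is taken here as the amlexanox group, since the labels leave both names unexplained. Amlexanox is an anti-inflammatory drug that inhibits the IKK-related kinases TBK1 and IKKε. Both groups carry the infection and no library from uninfected mice was analysed here. Strain, genotype, age, dose, time after surgery and how many animals stand behind a library are not stated in the labels. Should libraries share animals, p-values would speak only for the technical spread between these samples.

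NF-κB is a family of dimeric transcription factors that switch on inflammatory genes when phagocytes sense bacteria. In resting cells the classical inhibitors IκBα (Nfkbia), IκBβ (Nfkbib) and IκBε (Nfkbie) hold the dimers in the cytoplasm; the IKK kinases mark them for destruction and the dimers enter the nucleus. Several members are themselves NF-κB targets, and the resynthesis of IκBα is a well-known negative feedback loop. RelA, c-Rel (Rel) and RelB carry transactivation domains, whereas p105 (Nfkb1) and p100 (Nfkb2) are precursors that are processed to the DNA-binding subunits p50 and p52 and act as inhibitors before that. IκBζ (Nfkbiz) and IκBNS (Nfkbid) are atypical nuclear members that modulate transcription at selected promoters. Retention in the cytoplasm, destruction of inhibitors and processing of precursors act on proteins, and only mRNA was measured here.

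Promoters of 4 members are shown first, because NF-κB itself binds DNA at the κB decamer consensus: those of Nfkbia, Nfkb2 and Rel, which varied together over libraries, and that of Rela, which held no match. They were picked after the values and matches were seen. The promoter table of RefSeq (build GRCm38.p6, the assembly also called mm10) held windows from 250 bases before to 50 bases after a transcription start for 7 of the 10 members; Nfkb1, Relb and Nfkbiz had no entry. Capitals mark matches to the κB decamer consensus on either strand; overlapping matches on both strands are merged.
Nfkbia, chr12:55492598-55492897, minus strand: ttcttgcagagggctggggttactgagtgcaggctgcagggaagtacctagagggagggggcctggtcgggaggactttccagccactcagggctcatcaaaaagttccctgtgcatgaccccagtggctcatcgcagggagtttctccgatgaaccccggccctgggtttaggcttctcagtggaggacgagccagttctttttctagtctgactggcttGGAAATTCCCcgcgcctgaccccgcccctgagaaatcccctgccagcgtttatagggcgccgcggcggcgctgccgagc
Nfkb2, chr19:46304487-46304786, plus strand: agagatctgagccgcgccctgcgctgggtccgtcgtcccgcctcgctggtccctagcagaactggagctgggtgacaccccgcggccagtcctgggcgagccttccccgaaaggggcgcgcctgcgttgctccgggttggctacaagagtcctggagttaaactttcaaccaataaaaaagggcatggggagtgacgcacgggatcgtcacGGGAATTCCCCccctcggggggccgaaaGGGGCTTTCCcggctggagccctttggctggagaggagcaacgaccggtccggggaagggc
Rel, chr11:23770920-23771219, minus strand: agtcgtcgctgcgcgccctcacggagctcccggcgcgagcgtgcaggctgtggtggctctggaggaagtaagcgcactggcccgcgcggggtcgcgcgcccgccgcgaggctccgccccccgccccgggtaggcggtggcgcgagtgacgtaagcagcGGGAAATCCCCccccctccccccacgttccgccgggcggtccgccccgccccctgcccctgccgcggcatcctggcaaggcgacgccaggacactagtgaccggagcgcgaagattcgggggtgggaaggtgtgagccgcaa
Rela, chr19:5637291-5637590, plus strand: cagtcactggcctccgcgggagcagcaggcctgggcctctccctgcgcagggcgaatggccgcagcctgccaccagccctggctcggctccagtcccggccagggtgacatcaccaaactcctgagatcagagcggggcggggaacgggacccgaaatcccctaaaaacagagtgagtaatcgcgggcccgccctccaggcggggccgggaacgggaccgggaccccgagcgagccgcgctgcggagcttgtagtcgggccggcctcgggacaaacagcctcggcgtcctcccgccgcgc
The window of Nfkbia held 1 match, beginning 29 bases before the start. The first window of Nfkb2 held matches beginning 39, 38 and 11 bases before the start, the one at 39 on both strands, and that of Rel held matches 92 and 91 bases before the start. Rela and Nfkbib held no match in their windows. With Nfkbie and Nfkbid, 5 of the 7 members held a match in at least 1 of their windows, against 9.55% of the 27025 genes in the table. Per window, 7 of 11 windows of members held one, against 8.46% of all 32851 windows of the same length. The windows are not independent: Nfkb2 and Nfkbid have 3 each, and windows 2 and 3 of Nfkb2 overlap and share a match. These matches describe the letters of the windows and do not show binding in these cells. Whether matches go with the variation over libraries was not tested. Nfkbie held a match, yet its median Pearson r with the other members was -0.13. Rela and Nfkbib held none and had r = 0.88 with each other, or 0.40 without AX 6 and AX 10.

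Across libraries, total counts ran from 10221170 to 13806885. Neutrophil genes were abundant: 15 markers summed to 8211 to 15768 CPM in AX and 9377 to 18607 CPM in NC. The 10 monocyte and small macrophage markers summed to 1473 to 4194 CPM in AX and 1884 to 4480 CPM in NC. The 14 large peritoneal macrophage markers were lower, at 204 to 585 CPM in AX and 150.3 to 412 CPM in NC. Genes of other cells differed most in AX 6 and NC 1. The 11 mesothelial markers, genes of the lining of the cavity, summed to 2602 CPM in AX 6 and 1089 CPM in NC 1, against 119 to 375 CPM elsewhere. No marker on any of the lists was at 0 in all libraries. In such bulk samples, fewer cells of a type and less RNA per cell cannot be told apart. Levels below are counts scaled to the TMM-adjusted library size (CPM), means have the SD over 5 libraries, and log2 fold changes are AX against NC from edgeR's quasi-likelihood test.

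For every NF-κB subunit and inhibitor, the 95% interval of the log2 fold change in mRNA between AX and NC included 0. None of the 10 members passed an adjusted p of 0.05, where 0% of all genes tested passed. Each had an adjusted p of 1.0 with the quasi-likelihood test of edgeR. At an unadjusted p under 0.05 the count was 0 of 10, against a background of 0.921% (113 genes), DESeq2 called 0 of all genes, with 193 at an unadjusted p under 0.05, and limma-voom 0, with 132, or 380 with library quality weights. On log2(FPKM + 1), limma called 0 of 9089 genes, with 92 at that level. For no member were the groups free of overlap, against 0.139% of genes tested. The 95% intervals together covered folds from 0.579 to 1.74, so a change of 2-fold lay outside the interval of every member. Fitted values were lower in AX for 8 members and higher for 2, with a median log2 fold change of -0.07, while 46.4% of all genes tested were lower and the median of all genes was 0.02. That count of lower members became 9 with upper quartile scaling, total counts alone, voom with quality weights, log2(FPKM + 1) or without NC 5. It was 7 with limma-voom, with either other filter on low counts or without AX 9. With the mesothelial markers as covariate, without AX 6, or without AX 6 and NC 1 together it was 10. Without NC 3 or without AX 10 it was 5, and in the other settings it stayed at 8.

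**Figure D1:**
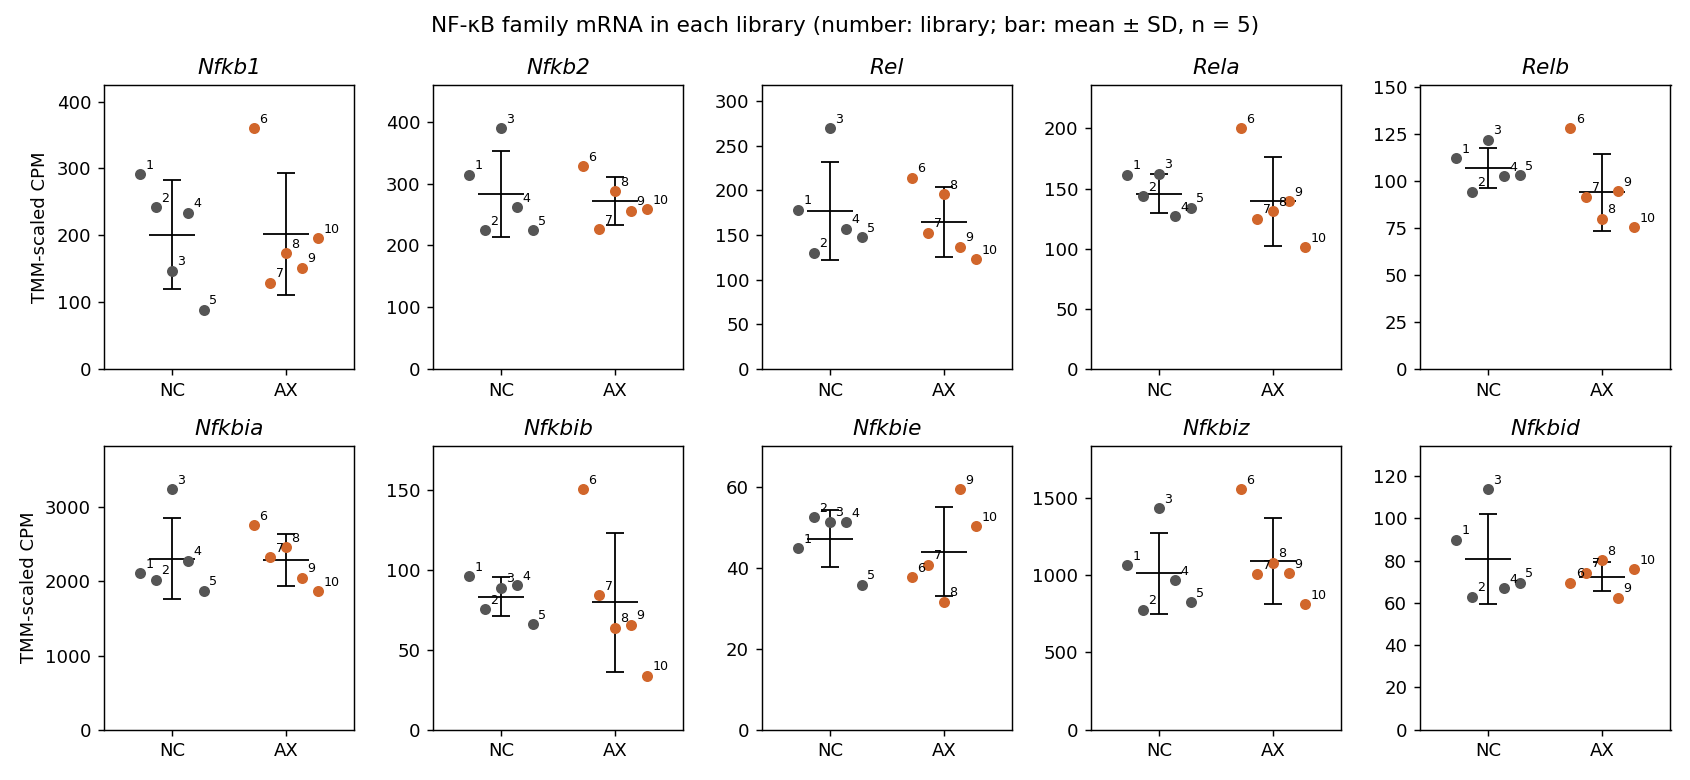
TMM-scaled CPM (vertical axis) of each NF-κB family gene in 5 NC (grey) and 5 AX (orange) libraries, numbered as labelled; black bars are the mean and SD of each group. The groups overlap in every panel, with AX 6 or NC 3 highest for 9 of the 10 genes.

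**Figure D2:**
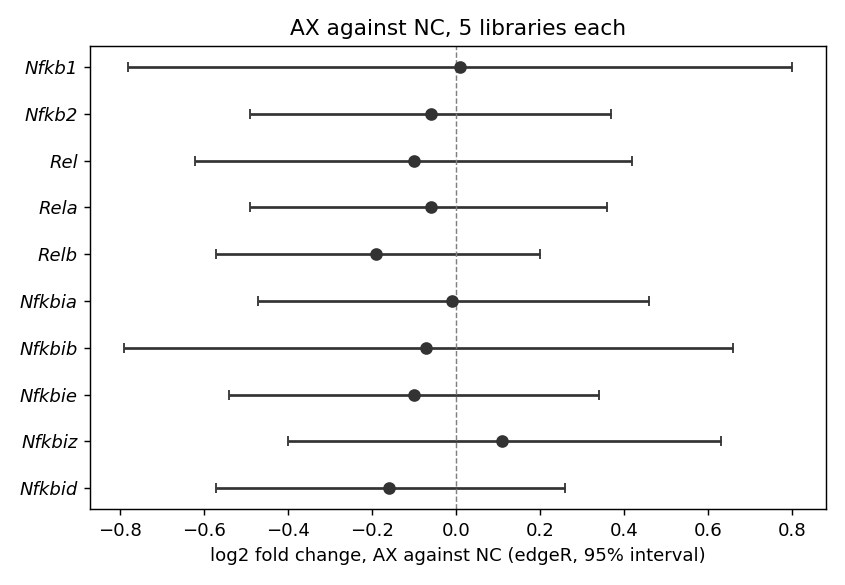
Log2 fold change of AX against NC (horizontal axis) for each gene, with its 95% interval from edgeR, 5 libraries each. Every interval includes 0; those of Nfkb1 and Nfkbib are the widest.

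Rela (ENSMUSG00000024927, chromosome 19, 5637483 to 5648130, plus strand, mm10), which encodes the main activating subunit of the classical pathway, was read at 162 CPM in NC 1, 144 in NC 2, 162.5 in NC 3, 127 in NC 4 and 134 in NC 5. In AX it was read at 200.2 CPM in AX 6, 125 in AX 7, 131 in AX 8, 139.7 in AX 9 and 101 in AX 10. The AX libraries held both the highest and the lowest value of all 10, and their SD of 36.9 CPM around a mean of 139 exceeded that of NC (146 ± 16.0 CPM, n = 5). The log2 fold change was -0.06 ± 0.19 (SE), and an exact permutation test of the means gave p = 0.754, where the smallest p that 5 against 5 libraries can give is 0.00794.

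Nfkb1 (ENSMUSG00000028163, chromosome 3, 135584655 to 135691547, minus strand), the gene of p105 and p50, had the highest coefficient of variation of the family. Its NC values were 291.4, 242.3, 147.2, 233.5 and 88.4 CPM in NC 1 to NC 5. In AX 6 to AX 10 they were 360.1, 129.2, 173.5, 151.6 and 195.9 CPM. The highest library, AX 6, was 4.08-fold above the lowest, NC 5. The coefficient of variation over 10 libraries was 40.6%, higher than for 74.7% of the 7678 genes with a mean of at least 10 CPM, whose median was 27.9%. The group means were nearly equal (202 ± 91.8 in AX and 201 ± 81.4 CPM in NC; log2 fold change 0.01 ± 0.36 SE; exact permutation p = 0.976). A transcript on the same strand inside Nfkb1, Gm43430, had at most 1.03 CPM.

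Rel (ENSMUSG00000020275, chromosome 11, 23736847 to 23770970, minus strand), which encodes c-Rel, a subunit best known in lymphoid and activated myeloid cells, was highest in NC 3. The NC libraries 1 to 5 held 178.5, 130.1, 269.5, 157.1 and 147.4 CPM, and AX libraries 6 to 10 held 214, 152.3, 196, 137 and 122.6 CPM. Apart from NC 3, the values of both groups lay in one range from 122.6 to 214 CPM. The log2 fold change was -0.10 ± 0.24 (SE; exact permutation p = 0.722), and it became 0.10 without NC 3.

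RelB and p52 are the subunits of the noncanonical pathway. Nfkb2 (ENSMUSG00000025225, chromosome 19, 46304737 to 46312090, plus strand) was at 314.3, 225, 389.6, 261.9 and 224.5 CPM in NC 1 to NC 5. The AX libraries 6 to 10 held 328.6, 226.1, 287.5, 256 and 258.8 CPM, all within the NC range. Relb (ENSMUSG00000002983, chromosome 7, 19606217 to 19629438, minus strand) had the smallest p of the family. It was at 112.2, 94.3, 122, 102.5 and 103.2 CPM in NC, and at 128.1, 91.6, 79.99, 94.6 and 75.5 CPM in AX. Of the AX libraries, 3 lay below all NC libraries and AX 6 lay above them. The log2 fold change of Relb was -0.19 ± 0.17 (SE), with 107 ± 10.6 CPM in NC and 94.0 ± 20.6 in AX (exact permutation p = 0.246). That of Nfkb2 was -0.06 ± 0.19 (exact permutation p = 0.802). The kinase gene Map3k14, whose product NIK starts the processing of p100, is taken up with the upstream genes below.

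Nfkbia (ENSMUSG00000021025, chromosome 12, 55489411 to 55492647, minus strand), the gene of the feedback inhibitor IκBα, gave the most reads of the family in every library. NC 1 to NC 5 held 2109.5, 2023.5, 3248, 2281 and 1875 CPM. The 5 AX libraries held 2761, 2330, 2462, 2051 and 1866 CPM in the order AX 6 to AX 10. NC 3 was the highest and AX 10 the lowest, 1.74-fold apart. With means of 2290 ± 350 in AX and 2310 ± 546 CPM in NC, the log2 fold change was -0.01 ± 0.21 (SE), with a 95% interval from -0.47 to 0.46 and exact permutation p = 0.952. The direction of so small a difference changed with the libraries used; without NC 3 it was 0.15.

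Nfkbib (ENSMUSG00000030595, chromosome 7, 28758251 to 28767512, minus strand), the gene of IκBβ, showed the widest range within a group. Its NC values were 96.1, 75.5, 89, 90.4 and 66.3 CPM, within 1.45-fold of each other. In AX it was at 150.9 CPM in AX 6, 84.1 in AX 7, 63.9 in AX 8, 65.8 in AX 9 and 34 in AX 10, a range of 4.44-fold. As for Relb, 3 AX libraries lay below all NC libraries and AX 6 above them. The log2 fold change was -0.07 ± 0.33 (SE; exact permutation p = 0.841), and it was 0.13 without AX 10 and -0.43 without AX 6. Sirt2, a deacetylase gene on the opposite strand, shares 778 bases with the 5′ part of the Nfkbib span. The RefSeq start of Nfkbib lies further in, within the window from 28766595 to 28766894, and the shared bases lie upstream of that start. Sirt2 was also highest in AX 6, at 43 CPM, and lowest in AX 10, at 9.88 CPM. Whether counting used strand is not given in the sources used here, so reads in the shared bases cannot be told apart.

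Nfkbie (ENSMUSG00000023947, chromosome 17, 45555716 to 45563169, plus strand), the gene of IκBε, had the fewest reads of the family, from 304 to 909 per library. It stood at 44.8, 52.6, 51.5, 51.3 and 35.9 CPM in NC, and at 37.8, 40.8, 31.7, 59.6 and 50.3 CPM in AX. AX 9 was the highest and AX 8 the lowest library, and AX 6, which led 5 other members, was among the 3 lowest. The means of 44.0 ± 11.0 in AX and 47.2 ± 7.02 CPM in NC gave a log2 fold change of -0.10 ± 0.20 (SE; exact permutation p = 0.587).

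The atypical members differed from each other in AX 6. Nfkbiz (ENSMUSG00000035356, chromosome 16, 55811375 to 55838899, minus strand), a strongly LPS-inducible gene, was at 1062, 775, 1432.5, 966.7 and 824.6 CPM in NC and at 1556.5, 1006, 1080.2, 1012 and 810.1 CPM in AX. AX 6 was the highest of all, and the other 4 AX libraries lay within the NC range. Nfkbid (ENSMUSG00000036931, chromosome 7, 30421732 to 30428746, plus strand) was at 89.9, 62.9, 113.8, 66.9 and 69.6 CPM in NC and at 69.4, 74.2, 80.1, 62.5 and 75.8 CPM in AX. Its AX libraries lay close together, with an SD of 6.75 CPM against 21.3 CPM in NC, where NC 3 and NC 1 were high. The log2 fold changes were 0.11 ± 0.23 for Nfkbiz (exact permutation p = 0.595) and -0.16 ± 0.19 (SE) for Nfkbid (exact permutation p = 0.484).

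Levels of different genes were compared per length, as CPM per kilobase of the length behind the deposited FPKM. Nfkbia led at a median of 1390 CPM per kb over 10 libraries, Nfkbiz followed at 141, Nfkb2 at 76.9 and Rela at 50.4, and in this order each gene lay above the next in 10 of 10 libraries, Rela above Nfkbib included. Below that came Nfkbib at 26.9, Nfkbid at 20.8, Rel at 20.7, Nfkbie at 19.6 and Relb at 17.8 CPM per kb. Neighbours among these were not separated: each exceeded the next of them in only 5 to 7 of 10 libraries. Genes further apart in the order could be, as Rel lay above Relb in every library with this length. Nfkb1 came last at 11.4 CPM per kb. Its place rests on the length used. The deposited FPKM imply 16227 bases for Nfkb1, while the union of its exons in GENCODE M21 is 12061 bases and its principal transcript is 4117 bases. With principal transcript lengths, Nfkb1 stood at 44.9 CPM per kb, level with Relb at 44.6 and near Rela at 50.4, and Nfkbie was last at 19.5. Nfkbiz moved to 245 CPM per kb. The same 4 genes held the first places with either length, but with principal transcripts Rela lay above the next gene, Nfkb1, in only 5 of 10 libraries.

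**Figure D3:**
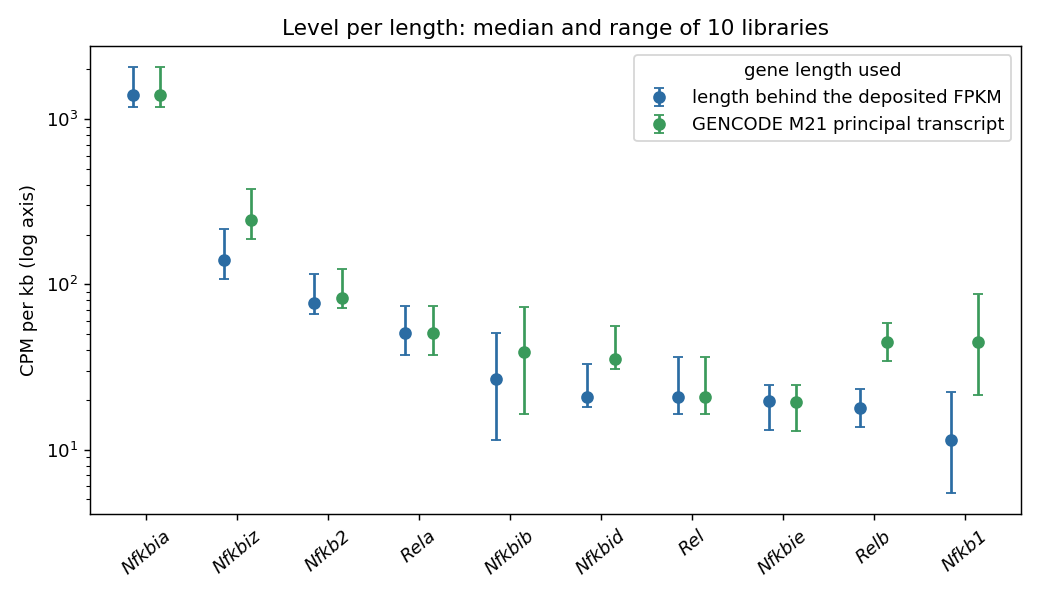
Level per length of each NF-κB family gene (CPM per kb, log axis), as the median (point) and range (bar) of 10 libraries, with 2 sources of gene length. Nfkbia lies above all others with either length, and Nfkb1 moves from 11.4 to 44.9 CPM per kb.

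The groups' shares of each subunit differed by less than their SD. Nfkb2 made up 44.2 ± 3.57% of the subunit mRNA per kb in AX and 43.0 ± 3.0% in NC, and Rela 27.9 ± 2.73% and 28.2 ± 2.9% (n = 5 each). Relb was at 9.3 ± 1.04% and 10.2 ± 1.0%, Rel at 12.0 ± 1.56% and 12.1 ± 1.74%. These shares are descriptions with no test. Nfkb1 was at 6.62 ± 1.72% and 6.49 ± 2.67%. With principal transcript lengths, Nfkb1 came to 18.9 ± 4.23% and 18.3 ± 6.8%, Relb to 17.0 ± 2.0% and 18.5 ± 2.24%, and Nfkb2 to 34.9 ± 3.28% and 33.8 ± 3.83%. Nfkbia made up 96.3 to 97.8% of the mRNA of the 3 classical inhibitors in every library. The summed level per kb of these inhibitors was 8.27 ± 0.89 times that of the 5 subunits in AX and 7.83 ± 0.864 times in NC. The size of this ratio rests on the lengths: it was 6.1 and 5.76 with principal transcripts, and 2.82 and 2.68 without division by length. By library the ratio was 6.47, 7.88, 8.72, 8.41 and 7.69 in NC and 7.42, 9.65, 8.64, 7.84 and 7.8 in AX. NC 1 was the lowest and AX 7 the highest, and the groups overlapped.

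Many of the members varied together over libraries rather than by group. Of the 45 pairs, 37 had a positive Pearson correlation of log2 CPM over the 10 libraries and 8 a negative one. The median r of the pairs was 0.57. The median r of members with all other genes at 10 CPM or more was 0.00. That median is no background for the pairs, since it was near 0 for every member. It was -0.03 for Nfkb1 and 0.02 for Nfkbie, which were in no pair that passed. After Benjamini-Hochberg adjustment over the 45 pairs, 10 pairs passed at 0.05 by permutation of Pearson's r and 7 of these also by Spearman's rho. How many pairs of other genes would pass was not examined, so these counts are not shown to be particular to the family. All values share the library total as denominator, and no library batch is given in the labels.

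Rel, Nfkbia, Nfkbiz and Nfkb2 formed a block in which every pair passed. Rel and Nfkbia were the closest pair, with r = 0.92 (permutation p = 0.00029, adjusted 0.00792) and rho = 0.92 (permutation p = 0.00039, adjusted 0.0175). Without NC 3 and AX 6, the libraries farthest from the median of Rel, r was 0.73. Rel with Nfkbiz gave r = 0.89 (permutation p = 0.00066, adjusted 0.00792; rho = 0.89, permutation p = 0.00148, adjusted 0.0333), and 0.79 without those libraries. Nfkbia with Nfkbiz gave r = 0.89 (permutation p = 0.00085, adjusted 0.00792; rho = 0.85, permutation p = 0.00301, adjusted 0.0451), and 0.75 without them. For Nfkb2 with Nfkbia, r = 0.79 (permutation p = 0.00626, adjusted 0.0313; rho = 0.73, permutation p = 0.0206, adjusted 0.116) fell to 0.31 without NC 3 and AX 6, so that relation rests on those libraries. Nfkbid passed with Nfkb2 only, with r = 0.76 (permutation p = 0.0108, adjusted 0.0484) and rho = 0.55 (permutation p = 0.103, adjusted 0.31). With Rel it narrowly missed the threshold, at r = 0.74 (permutation p = 0.0153, adjusted 0.0575).

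Rela, Relb and Nfkbib were the other members whose pairs all passed. Rela and Relb had r = 0.87 (permutation p = 0.00079, adjusted 0.00792; rho = 0.83, permutation p = 0.00451, adjusted 0.0478), and 0.71 without AX 6 and AX 10. Relb and Nfkbib had r = 0.85 (permutation p = 0.00088, adjusted 0.00792; rho = 0.81, permutation p = 0.00699, adjusted 0.0478), and 0.80 without NC 3 and AX 6. Rela and Nfkbib had r = 0.88 (permutation p = 0.0039, adjusted 0.0219; rho = 0.61, permutation p = 0.0664, adjusted 0.273), which was 0.40 without AX 6 and AX 10 and so rests on those libraries. Nfkb1 and Nfkbie were in no pair that passed: their median r with the other members was 0.29 and -0.13. Without NC 3, 6 pairs passed instead of 10. These blocks were picked out after the values were seen, and they are not sharply apart. Pairs across them had r from 0.42 (Nfkb2 with Nfkbib) to 0.75 (Rela with Nfkbiz). The latter narrowly missed the threshold (permutation p = 0.0123, adjusted 0.0502), and no pair across the blocks passed.

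**Figure D4:**
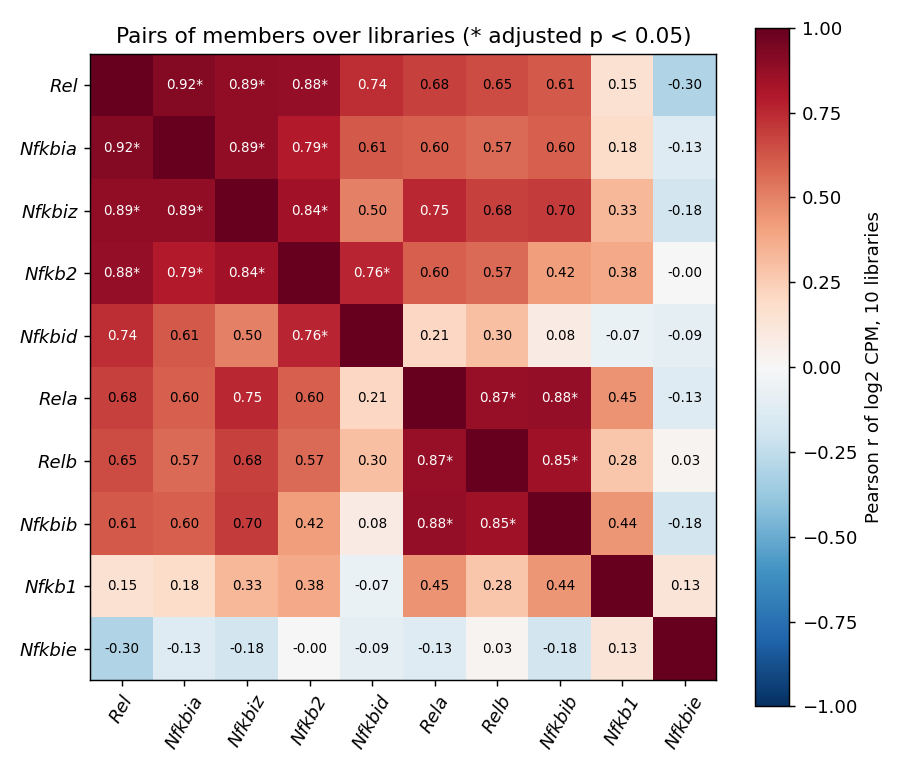
Pearson correlation of log2 CPM over 10 libraries for each pair of members (colour and number; both axes list the genes, an asterisk marks an adjusted permutation p under 0.05). Rel, Nfkbia, Nfkbiz and Nfkb2 form a block of pairs that passed and Rela, Relb and Nfkbib another, with r up to 0.75 across them. Nfkbie runs from -0.30 to 0.13.

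**Figure D5:**
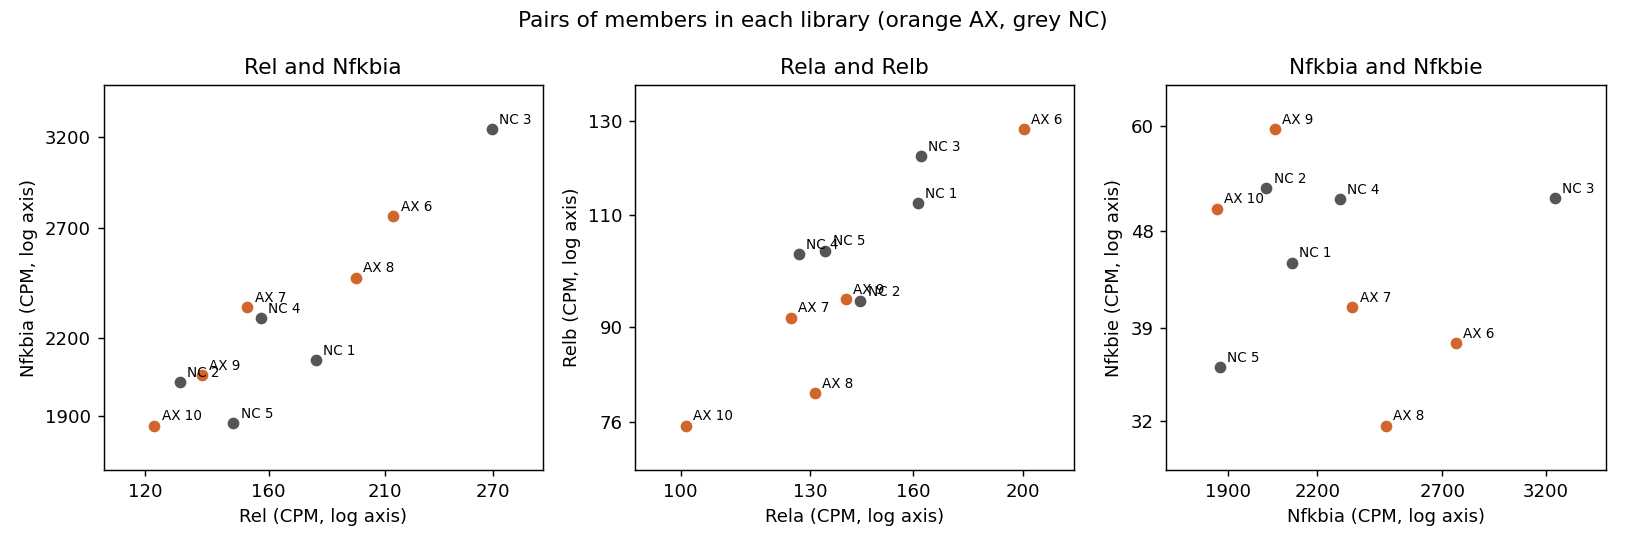
Levels of 3 pairs of members (CPM, log axes) with a point for each library, orange for AX and grey for NC. Rel with Nfkbia and Rela with Relb line up across both groups with NC 3 or AX 6 at the upper end, and Nfkbia with Nfkbie does not (r = -0.13).

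AX 6, NC 3 and AX 10 stood apart most often. AX 6 was the highest library for 5 members, NC 3 for 4, and AX 10 the lowest for 5. The median member lay 0.39 above its mean over libraries in NC 3 and 0.37 above in AX 6 on the log2 scale, and at -0.31 in AX 10, while the median of all genes at 10 CPM or more lay at 0.05, -0.01 and 0.01. AX 6 also had the highest mesothelial sum, and AX 10 the lowest neutrophil sum, at 8211 CPM. NC 3, at a mesothelial sum of 342 CPM and a neutrophil sum of 16824 CPM, had the lowest sums of large peritoneal macrophage markers (150.3 CPM) and of 8 B cell markers (75.6 CPM). With the mesothelial list as covariate, the fold change of Relb was -0.28 and that of Nfkbib -0.40, and with the neutrophil list they were -0.18 and -0.06; neither passed. The part of these markers in the correlations was not tested.

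No other gene of the pathway passed the adjusted threshold. Of 14 tested genes of the IKK complex and kinases upstream with their partners, 11 were higher in AX and 3 lower. Their fitted values had a median log2 fold change of 0.14. Of all genes tested, 46.4% had a lower fitted value in AX, the background for this split and for those of the lists that follow. In this list 1 gene, Map3k14, had an unadjusted p under 0.05 with edgeR, against 0.921% of all genes tested. Map3k14 stood at 19.8 ± 3.47 CPM in AX against 13.8 ± 3.18 for NC, with a log2 fold change of 0.52 ± 0.22 (SE; unadjusted p = 0.035, adjusted p = 1.0 with edgeR). Its values were 21.7, 16, 21.8, 23.3 and 16.1 CPM in AX 6 to AX 10 and 12.1, 18.5, 14.6, 9.97 and 14 CPM in NC 1 to NC 5, so only NC 2 reached into the AX range. Ikbkg, the gene of the IKK scaffold NEMO, ran from 2.29 (AX 8) to 64.1 CPM (AX 10) among AX libraries and from 2.97 to 24.6 CPM in NC. Among 16 adaptors and ubiquitin ligases, 8 were higher and 8 lower, with Myd88, the adaptor of Toll-like receptors, at 218 ± 30.7 and 258 ± 27.2 CPM. The median log2 fold change of this list was -0.01 and 0 passed.

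Of 17 other brakes of the pathway, 9 were lower and 8 higher (median -0.02), and 0 passed. Bcl3, an IκB-like nuclear protein that binds p50 and p52, stood at 215 ± 48.9 CPM in AX against 285 ± 46.4 for NC, with a log2 fold change of -0.40 ± 0.19 (SE; unadjusted p = 0.0605, adjusted p = 1.0 with edgeR). NC ran from 247.4 to 356.4 CPM; AX 7, at 285.7 CPM, lay within that range and the other 4 AX libraries, at 157.8 to 238 CPM, below it. Of 27 tested NF-κB targets, 14 were higher and 13 lower, with a median of 0.03. The chemokine gene Cxcl1 and the cyclooxygenase gene Ptgs2 were far higher in AX 6 (8066 and 10098 CPM) and NC 1 (2163 and 2937 CPM) than in the other libraries, where they were at 170 to 566 and 178 to 988 CPM. AX 6 and NC 1 are the libraries with the highest mesothelial sums. They also had the highest stromal (2897 and 1223 CPM), red cell (1818 and 840 CPM), gut epithelial (534 and 943 CPM) and dendritic cell sums (89.9 and 71.8 CPM). Their monocyte and small macrophage sums were the lowest (1473 and 1884 CPM). Whether any of these cells have a part in the Cxcl1 and Ptgs2 levels was not tested.

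Genes outside the family with the most similar profile over the 10 libraries were listed as a description, the 3 closest for each member among genes at a mean of 10 CPM or more. Nfkbia ran closest to Stk40 (r = 0.974), the small GTPase gene Rab8b (0.95) and Dusp1 (0.941), an inducible phosphatase of MAP kinases that ranged from 1131 to 3600.2 CPM. Rel ran closest to Eepd1 (0.95), Selk and Sertad2, and Nfkbiz to Osgin2 (0.942), Ttc39b and Rnf19a. For Nfkb2 the list held Atg2a (0.903), Ing1 and the adaptor gene Bcl10 (0.864), and for Nfkbid it held Cflar (0.916), which encodes the caspase-8 inhibitor c-FLIP, Rybp and Mtmr12. Bcl10 and Cflar are on the fixed lists of pathway genes. Rela and Relb shared Iars2, a mitochondrial tRNA synthetase gene (0.943 and 0.928); their other neighbours were Map1lc3a and Mgst1 for Rela and Poldip2 and Txnl1 for Relb. Nfkbib ran closest to St7 (0.974), Ppp2r2d and the pseudogene Hmgb1-ps2, whose reads may belong to Hmgb1. The neighbours of Nfkbie, which stood apart from the family, were Vav3 (0.92), Pdlim2 (0.912), a ubiquitin ligase gene of the brake list, and Ddx26b. Those of Nfkb1 were the co-chaperone gene Dnajb1 (0.931), the proteasome ATPase gene Psmc6 (0.912) and Sart3 (0.91).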

How the data were processed

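Poly(A) RNA of peritoneal lavage cells was sequenced in 10 libraries, 5 AX and 5 NC, grouped by title. Per the submitters' processing notes, the authors used HISAT2 2.0.4 and build mm10; for the counter, annotation and strand setting, each is not given in the sources used here. Counts, as deposited, are whole numbers, not normalised; the deposited FPKM equal counts over a gene length and the column total, and were used for that length and for 1 alternative test.

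Counts were tested with edgeR 4.0.16 in R 4.3.3: filterByExpr by group, TMM scaling, two-sided quasi-likelihood F test, Benjamini-Hochberg adjustment over all 12264 genes tested, threshold 0.05. Standard errors are the fold change divided by the root of F. The exact two-sided permutation test of mean CPM ran over 252 arrangements. Correlations used log2 CPM (log2 of CPM + 0.5 for the comparison with other genes) and 100000 two-sided permutations with scipy 1.17.1 in Python 3.11.15; figures used matplotlib 3.10.9. Gene spans are those of the table; GENCODE M21 has the same span for 7 of the 10 members. The promoter motif was searched on both strands. The fit and the correlation step were tested on simulated data.

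Alternatives were DESeq2 1.42.0, limma 3.58.1 (voom with and without library quality weights, and log2(FPKM + 1)), other scalings and filters (none, or 50 counts in 5 libraries), neutrophil or mesothelial covariates and leaving out libraries. The principal transcript length and Spearman counts were added after seeing the data. Members, lists and tests were chosen with earlier results of these data known. Named genes are the 10 members, up to 4 genes of each pathway list with the smallest p, and the 3 most similar genes of each member (without predicted genes, Rik clones and receptor segments), plus overlapping genes. Intervals cover the spread between these libraries only. With 304 reads or more per member and library, counting error was small beside that spread.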

Additional observations from a re-analysis of the deposited data

Results flagged for a closer look

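Nfkb1 in AX 6, at 360.1 CPM, lay far above the other 4 AX libraries, which held 129 to 196 CPM; the gap to the next library was 0.711 of the range of the group. This was 1 of 20 groups of 5 libraries examined for a value far from the others, and chance marks about 1 in 20. AX 6 had the highest mesothelial marker sum of all libraries (2602 CPM). NC 1, with the next highest sum (1089 CPM), had the second highest Nfkb1 level, 291.4 CPM. The other libraries did not keep this order. NC 2, with the lowest mesothelial sum (118.9 CPM), held 242.3 CPM of Nfkb1, and AX 7, at a sum of 375.4 CPM, held 129.2 CPM. Whether these markers have a part in the Nfkb1 level was not tested.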

How the results depend on the processing

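No member passed the threshold under any alternative that was run (lowest adjusted p 0.999), and 195 of 220 alternative values kept their direction. Nfkb1 changed sign with upper quartile scaling (-0.01), total counts alone (-0.11), the neutrophil (-0.06) or mesothelial list (-0.17) as covariate, without AX 6 and NC 1 together (-0.13), with voom and quality weights (-0.30) and on log2(FPKM + 1) (-0.03). Nfkbia turned to 0.0016 without a filter, 0.0035 with the stricter filter, 0.03 with the neutrophil covariate and 0.01 with voom; Nfkbiz turned to -0.02 with the mesothelial covariate and -0.03 without AX 6 and NC 1. Leaving out each library in turn gave log2 fold changes from -0.30 to 0.18 for Nfkb1, -0.14 to 0.08 for Nfkb2, -0.22 to 0.10 for Rel, -0.23 to 0.03 for Rela, -0.09 to 0.15 for Nfkbia, -0.43 to 0.13 for Nfkbib, -0.05 to 0.27 for Nfkbiz and -0.23 to 0.00084 for Nfkbid; Relb and Nfkbie kept their sign. The cause was not tested.

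Over all genes, calls ranged from 0 to 1 on leaving out a library; the single call, Rnf24 without NC 3 (adjusted p = 0.0174 with edgeR), is no member and is named after its value was seen. On leaving out a library, correlated pairs ranged from 6, without NC 3, to 10; other scalings and Spearman's rho gave 7 to 10, and deviations from the group means gave 14. The inhibitor to subunit ratio became 2.82 in AX and 2.68 in NC without division by length and 6.1 and 5.76 with principal transcript lengths, by construction; on leaving out a library it ranged from 7.92 to 8.48 and from 7.61 to 8.17. No paired analysis was possible because AX and NC share no replicate numbers.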

Other observations

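Some upstream genes of the pathway varied more between libraries than most members did. Ripk1, a kinase of the TNF receptor complex, reached 46.7 CPM (AX 9) and 30.04 CPM (NC 1) and lay at 5.51 to 25.3 CPM in the others. Ube2v1, a partner of the ubiquitin-conjugating enzyme Ube2n, was at 17.7 CPM in AX 6 and at 0.651 to 3.79 CPM elsewhere. Ikbkg reached 64.1 (AX 10) and 41.5 CPM (AX 9) and lay at 2.29 to 24.6 CPM elsewhere. Among the members, the highest and lowest libraries were 4.08-fold apart for Nfkb1 and 4.44-fold for Nfkbib, and 1.7-fold to 2.2-fold for the other 8.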
